A study of Homo sapiens with 6 samples.

Results

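Transcripts of 10 Notch pathway genes were examined in liver metastases formed by SW480 cells, an established line from a human colorectal cancer. They comprised the receptor genes NOTCH1, NOTCH2 and NOTCH3, the ligand genes DLL1, DLL4, JAG1 and JAG2, the target genes HES1 and HEY1, and ATOH1, a gene that Notch signalling keeps off in the gut. All 10 symbols were found among the 58884 gene identifiers of the table. The tumour cells carried a guide against ITPR3 (sgITPR3) or a control guide (sgCtrl), were delivered to immunodeficient NSG mice through the portal vein, and were sequenced after recovery from the dissociated liver and removal of mouse cells, with 3 libraries per group. The comparison asks which genes differ between metastases with and without ITPR3, which encodes the type 3 inositol trisphosphate receptor, a calcium release channel of the endoplasmic reticulum. The labels state that loss of the protein was checked by Western blot. They do not state the number of guides or clones, the age of the mice, the time in the liver or which libraries share an animal. The p-values therefore measure the spread between these libraries alone.

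Notch receptors sit in the plasma membrane and are activated by Delta-like (DLL) or Jagged (JAG) ligands on neighbouring cells. Ligand binding lets ADAM proteases and then gamma-secretase cut the receptor, and the freed intracellular part joins the DNA-binding protein RBPJ and a Mastermind (MAML) co-activator to switch on HES and HEY genes, which encode transcriptional repressors. In the intestinal epithelium HES1 represses ATOH1, the factor that commits cells to the secretory lineages, so that Notch activity favours absorptive and progenitor cells.

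RBPJ recognises DNA around the core letters TGGGAA. The 250 bases before the RefSeq start of HES1, HEYL, HEY2 and HES4 (build GRCh38.p14, written 5′ to 3′ along the gene) are shown because these target genes were measured here, hold those letters and, as described below, did not all pass the test. Capitals mark TGGGAA or its reverse complement TTCCCA.
HES1 (chr3:194135898-194136147, plus strand): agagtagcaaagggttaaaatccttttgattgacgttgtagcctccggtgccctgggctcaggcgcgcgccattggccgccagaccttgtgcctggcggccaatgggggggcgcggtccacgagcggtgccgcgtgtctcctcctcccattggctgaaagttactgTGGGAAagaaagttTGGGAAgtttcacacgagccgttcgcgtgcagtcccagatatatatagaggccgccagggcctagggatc
HEYL (chr1:39639644-39639893, minus strand): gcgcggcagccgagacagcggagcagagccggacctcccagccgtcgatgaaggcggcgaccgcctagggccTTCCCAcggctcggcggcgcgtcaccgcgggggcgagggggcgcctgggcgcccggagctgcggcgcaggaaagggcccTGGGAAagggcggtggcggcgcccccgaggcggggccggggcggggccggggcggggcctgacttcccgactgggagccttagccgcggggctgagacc
HEY2 (chr6:125749382-125749631, plus strand): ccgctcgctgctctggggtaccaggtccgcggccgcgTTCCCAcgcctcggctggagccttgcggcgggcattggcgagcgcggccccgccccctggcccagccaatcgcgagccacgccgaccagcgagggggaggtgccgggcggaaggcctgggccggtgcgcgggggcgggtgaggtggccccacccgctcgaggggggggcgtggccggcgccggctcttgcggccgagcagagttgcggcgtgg
HES4 (chr1:1000098-1000347, minus strand): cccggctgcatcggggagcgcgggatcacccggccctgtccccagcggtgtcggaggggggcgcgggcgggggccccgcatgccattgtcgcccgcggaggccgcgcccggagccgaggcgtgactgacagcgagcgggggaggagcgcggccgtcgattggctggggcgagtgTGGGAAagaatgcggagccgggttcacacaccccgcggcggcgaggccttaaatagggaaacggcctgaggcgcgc
HES1 held the letters at 2 places on its own strand, from base 84 to 79 and from base 70 to 65 before the start. HEYL held them once on each strand, and HEY2 and HES4 once. Of 10 HES, HEY and NRARP genes with an entry in the promoter table, 6 held TGGGAA on either strand. The share over 35116 promoters of the same length was 20.8%. The longer GTGGGAA or its reverse complement, which contains the first motif, was held by 5 of the 10, against 5.43% of promoters. Among the 8 of the 10 genes with an entry (DLL1 and HEY1 had none), HES1 alone held TGGGAA. A match of letters is a description and not a binding site.

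Gene counts summed to between 19140055 and 23943797 per library, and levels are given as CPM, counts scaled to a common library size, with mean ± SD over n = 3 libraries per group. A count of 1 was worth 0.0405 to 0.0538 CPM. Since the libraries count one tag near the 3′ end of each transcript, CPM are not scaled to gene length and are compared only for the same gene. ITPR3 itself had 39.4, 41.0 and 46.2 CPM in the sgITPR3 libraries and 107.5, 93.9 and 94.2 CPM in the sgCtrl libraries, a check of transcript level only, since a 3′ tag need not cover the edited site, which the labels do not give. Of 10 epithelial markers, 7 reached 1 CPM in every library, and KRT20, CDX1 and CEACAM5 were at or near 0. Their sum was lower in every sgITPR3 library (2030 to 2080 CPM in sgITPR3, 2410 to 2800 CPM in sgCtrl), but VIL1 and CDX2 went the other way. VIL1 was at 36.1, 38.1 and 36.0 CPM in sgITPR3 and 2.74, 4.13 and 2.67 CPM in sgCtrl. CDX2 was at 63.3, 62.4 and 53.6 CPM in sgITPR3 and 51.15, 42.8 and 47.6 CPM in sgCtrl. Endothelial markers summed to 0.607 to 0.979 CPM in sgITPR3 and 0.597 to 1.24 CPM in sgCtrl over 10 genes, with EMCN and CLEC14A at 0. The hepatocyte transcript ALB was at 231.6, 152.6 and 111.5 CPM in sgITPR3 and at 33.8, 169.7 and 21.6 CPM in sgCtrl. For ALB, sgCtrl replicate 2 thus lay among the sgITPR3 libraries. All 10 hepatocyte markers had counts, but only 4 reached 1 CPM in every library. They summed to 148 to 295 CPM in sgITPR3 and 66.1 to 247 CPM in sgCtrl. SERPINA1 among them was lower in sgITPR3, at 16.4, 12.4 and 12.9 CPM, against 45.3, 45.8 and 38.9 CPM in sgCtrl. Summed erythroid markers were at 4.84 to 6.39 CPM in sgITPR3 and 0.587 to 1.34 CPM in sgCtrl. Of the 6 genes, 4 had a count, and AHSP was among those at 0. HBA2 made up most of the sum, and HBB had 0, 0 and 1 counts in sgITPR3 and 1, 2 and 0 counts in sgCtrl. Neutrophil markers summed to 3.80 to 7.51 CPM in sgITPR3 and 9.88 to 15.7 CPM in sgCtrl (4 of 6 with a count, FCGR3B and ELANE at 0). S100A9 made up most of that sum, while MPO had 6, 7 and 2 counts in sgITPR3 and 2, 2 and 1 counts in sgCtrl. Lymphocyte markers summed to 117 to 151 CPM in sgITPR3 and 95.1 to 107 CPM in sgCtrl, nearly all from CD3D. The hosts were mice, while reads were aligned to the human genome. The sums over liver, vessel and blood cell markers therefore do not measure how many host cells were present. The part of these markers in the results was not tested. The 8 tested genes of the set and the further pathway genes that passed were refitted with the ALB level as a covariate and without each library.

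Of the 10 genes, JAG1 and HES1 were higher in sgITPR3 metastases and none was lower. The other 6 that could be tested (NOTCH1, NOTCH2, DLL1, DLL4, JAG2 and HEY1) did not pass, and NOTCH3 and ATOH1 had too few counts for the test. The rise was 1.65-fold for JAG1 and 1.21-fold for HES1. Genes were compared with the quasi-likelihood test of edgeR, and passed at a Benjamini-Hochberg adjusted p under 0.05 over 15804 genes. In that fit 23.5% of all genes passed, 11.6% upwards and 11.9% downwards, so 2 of 8 is a share like that of genes at large. Without sgITPR3 replicate 2 only JAG1 of the 10 passed, and 2331 genes in all passed, against 3717 with every library. In bulk RNA, fewer cells that express a gene cannot be told from less RNA per cell.

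**Figure D1:**
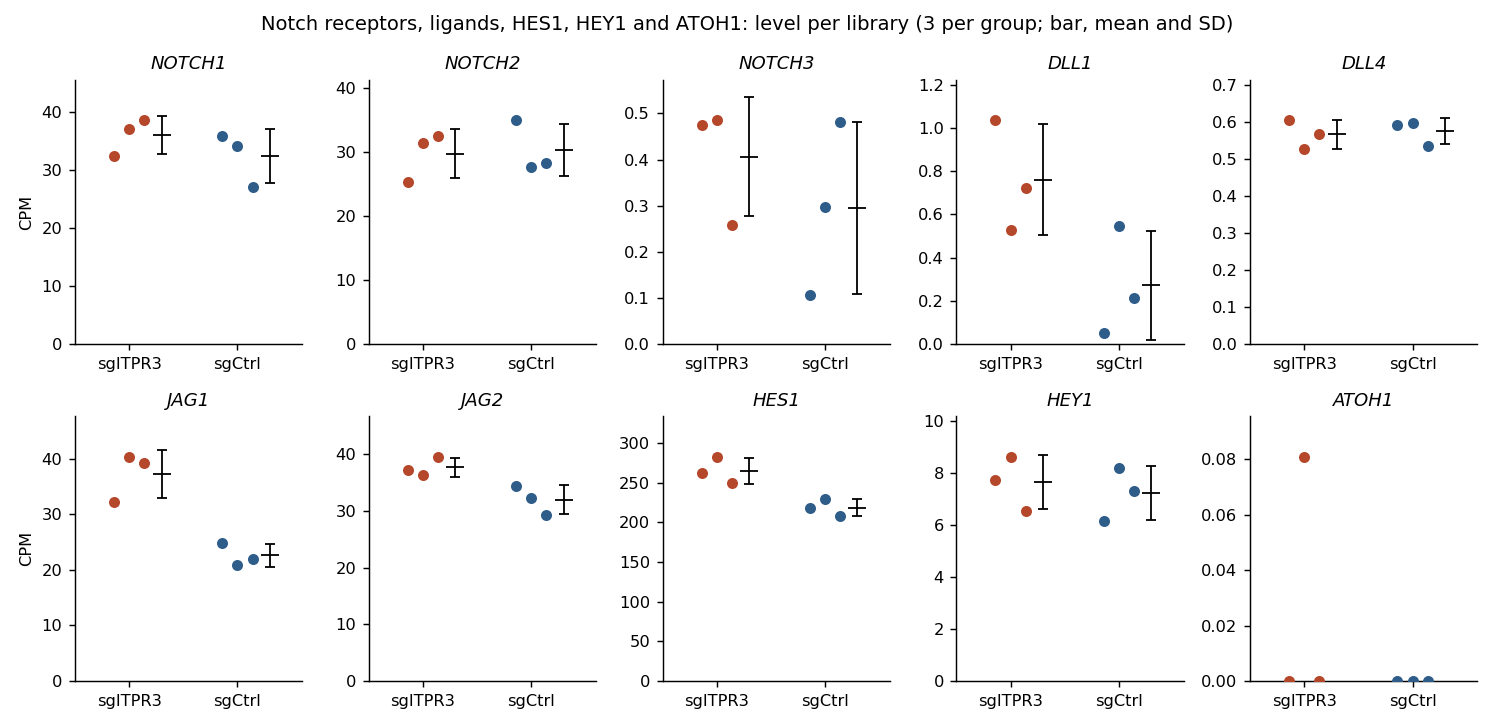
Level of each of the 10 genes in CPM (vertical axes, each from 0) in the 3 sgITPR3 libraries (left, red) and the 3 sgCtrl libraries (right, blue); points are libraries, and the bars give the mean and SD (none for ATOH1). The groups stand apart for JAG1, JAG2 and HES1, and overlap for NOTCH1, NOTCH2, DLL4 and HEY1.

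The receptor genes showed no difference that passed. NOTCH1 (ENSG00000148400, GRCh38 chromosome 9, 136494433 to 136545786), whose product is the main receptor of intestinal crypt progenitors together with NOTCH2, had 32.3, 37.0 and 38.6 CPM in the sgITPR3 libraries, against 35.9, 34.1 and 27.1 CPM in the sgCtrl libraries. The groups overlapped, and the log2 fold change was 0.15 (95% interval -0.08 to 0.38, edgeR adjusted p = 0.338). NOTCH2 (ENSG00000134250, chromosome 1, 119911553 to 120069626) had 25.4, 31.4 and 32.5 CPM in sgITPR3, against 35.0, 27.6 and 28.3 CPM in sgCtrl. Here too the ranges overlapped, with a log2 fold change of -0.03 (95% interval -0.27 to 0.22, edgeR adjusted p = 0.894). The intervals leave room for a change of NOTCH1 up to 0.38 and of NOTCH2 down to -0.27 on the log2 scale. NOTCH2 shares near-identical sequence with the NOTCH2NL genes over part of its length. Whether any tags near the 3′ end fell in the shared part was not tested. Of these copies, NOTCH2NLA had 7, 4 and 2 counts in sgITPR3 and 3, 2 and 2 counts in sgCtrl. NOTCH2NLC had 6, 3 and 3 counts in sgITPR3 and 3, 3 and 4 counts in sgCtrl, and NOTCH2NLB had none.

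NOTCH3 (ENSG00000074181, chromosome 19, 15159038 to 15200981), a receptor best known from the mural cells of blood vessels, was near the limit of detection in both groups. It had 11, 12 and 5 counts in the sgITPR3 libraries, against 2, 6 and 9 counts in the sgCtrl libraries, where 3 counts are 0.121 to 0.161 CPM. It did not pass the filter on low counts, and the fit without that filter gave a log2 fold change of 0.46 (edgeR adjusted p = 0.724). The receptor gene NOTCH4, which is not one of the 10, had 1.99 ± 0.737 CPM in sgITPR3 and 2.03 ± 0.745 CPM in sgCtrl and did not pass (edgeR adjusted p = 0.973).

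Among the ligands JAG1 rose. JAG1 (ENSG00000101384, chromosome 20, 10637684 to 10673999, minus strand) encodes Jagged 1, a ligand that is itself a known target of Wnt and Notch signalling in colorectal cancer cells. It had 32.3, 40.4 and 39.2 CPM in the sgITPR3 libraries, against 24.9, 20.9 and 21.9 CPM in the sgCtrl libraries. Every sgITPR3 library lay above every sgCtrl library. The log2 fold change was 0.72 (SE 0.104, edgeR adjusted p = 1.77e-04), and across 13 alternatives it stayed between 0.66 and 0.84 and passed in each of them. With ALB as a covariate it was 0.84 (edgeR adjusted p = 2.80e-04).

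JAG2 (ENSG00000184916, chromosome 14, 105140981 to 105168824) encodes the second Jagged ligand. It had 37.3, 36.3 and 39.6 CPM in sgITPR3, against 34.5, 32.3 and 29.3 CPM in sgCtrl, without overlap; groups failed to overlap for 39.3% of all tested genes, and for 19.6% with sgITPR3 on top. The log2 fold change was 0.24 (95% interval 0.05 to 0.42), and it did not pass (edgeR adjusted p = 0.0611). It passed without sgCtrl replicate 1 (log2 fold change 0.29, edgeR adjusted p = 0.0460) and with a filter of 1 CPM in 3 libraries (edgeR adjusted p = 0.0485).

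The balance of the 2 Jagged transcripts can be read within each library, where neither depth nor scaling enters. There were 0.866, 1.11 and 0.990 JAG1 tags per JAG2 tag in the sgITPR3 libraries, against 0.722, 0.648 and 0.750 in the sgCtrl libraries. All sgITPR3 ratios exceeded all sgCtrl ratios, with a difference of 0.48 on the log2 scale. A two-sided exact permutation test over the 6 libraries gave p = 0.1, the smallest that 3 against 3 allows, and 0.2 after Benjamini-Hochberg adjustment over 4 such ratios. These ratios were chosen after the levels had been seen.

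The Delta-like ligand genes were low. DLL1 (ENSG00000198719, chromosome 6, 170282206 to 170306565), which encodes a ligand that secretory cells of the gut present to their neighbours, had 24, 13 and 14 counts in the sgITPR3 libraries, against 1, 11 and 4 counts in the sgCtrl libraries. In CPM the sgITPR3 libraries were at 1.04, 0.526 and 0.722 and the sgCtrl libraries at 0.0538, 0.547 and 0.214. One sgCtrl library, replicate 2, lay within the sgITPR3 range, and it is the sgCtrl library with the high ALB level. The log2 fold change of DLL1 was 1.44 (95% interval 0.15 to 2.73) and did not pass (edgeR adjusted p = 0.0997). It was 2.45 without sgCtrl replicate 2 and then passed (edgeR adjusted p = 0.0181), and it was 0.59 once ALB entered the fit (edgeR adjusted p = 0.637). DLL1 also overlaps FAM120B on the opposite strand, and the strand setting of the counting was not given in the sources used here; the same holds for the antisense transcripts that overlap JAG1, HEYL, HEY2 and HES6.

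DLL4 (ENSG00000128917, chromosome 15, 40929333 to 40939073), the Delta-like ligand of sprouting vessels that crypt cells also make, had 14, 13 and 11 counts in sgITPR3, against 11, 12 and 10 counts in sgCtrl. The groups overlapped, at 0.566 ± 0.0393 CPM in sgITPR3 and 0.574 ± 0.0349 CPM in sgCtrl. At this depth the 95% interval of the log2 fold change ran from -0.93 to 0.88 (edgeR adjusted p = 0.976), so a change below about that size was not detectable. The divergent ligand gene DLL3, outside the 10, had 20.6 ± 0.0770 CPM in sgITPR3 and 22.0 ± 1.70 CPM in sgCtrl and did not pass (edgeR adjusted p = 0.506).

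HES1 (ENSG00000114315, chromosome 3, 194136145 to 194138732) is the classical target, with the pair of TGGGAA letters printed above just before its start. It had 262.9, 282.9 and 249.9 CPM in the sgITPR3 libraries, against 218.7, 229.5 and 208.0 CPM in the sgCtrl libraries. The lowest sgITPR3 library lay above the highest sgCtrl library. The rise was 0.28 on the log2 scale (SE 0.0702, 95% interval 0.13 to 0.43, edgeR adjusted p = 0.0103). The call ended without sgITPR3 replicate 2 (log2 fold change 0.23, edgeR adjusted p = 0.0817) and in the fit with an ALB covariate (0.20, edgeR adjusted p = 0.149), while without sgCtrl replicate 2 it held (0.31, edgeR adjusted p = 0.00549). Over all 13 alternatives the adjusted p was 0.00126 to 0.149.

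HEY1 (ENSG00000164683), encoding a repressor related to HES1, did not pass. It had 7.73, 8.62 and 6.55 CPM in sgITPR3, against 6.13, 8.20 and 7.31 CPM in sgCtrl, and the groups overlapped. The log2 fold change was 0.08 (95% interval -0.26 to 0.43, edgeR adjusted p = 0.757). Its interval contains the change of HES1, so the 2 genes were not shown to differ.

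ATOH1 (ENSG00000172238, chromosome 4, 93828753 to 93830964) was at or near 0. It had 0, 2 and 0 counts in the sgITPR3 libraries, against 0, 0 and 0 counts in the sgCtrl libraries. Both groups lie at or under a floor of 3 counts, which is 0.121 to 0.155 CPM in sgITPR3 and 0.149 to 0.161 CPM in sgCtrl, so no fold change is given. The same was seen for some secretory factors. SPDEF, a goblet cell factor, had 0, 2 and 0 counts in sgITPR3 and 1, 0 and 0 counts in sgCtrl, and NEUROG3, the enteroendocrine factor, had 0, 1 and 0 counts in sgITPR3 and none in sgCtrl. INSM1, another enteroendocrine factor, had no counts in any library.

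**Figure D2:**
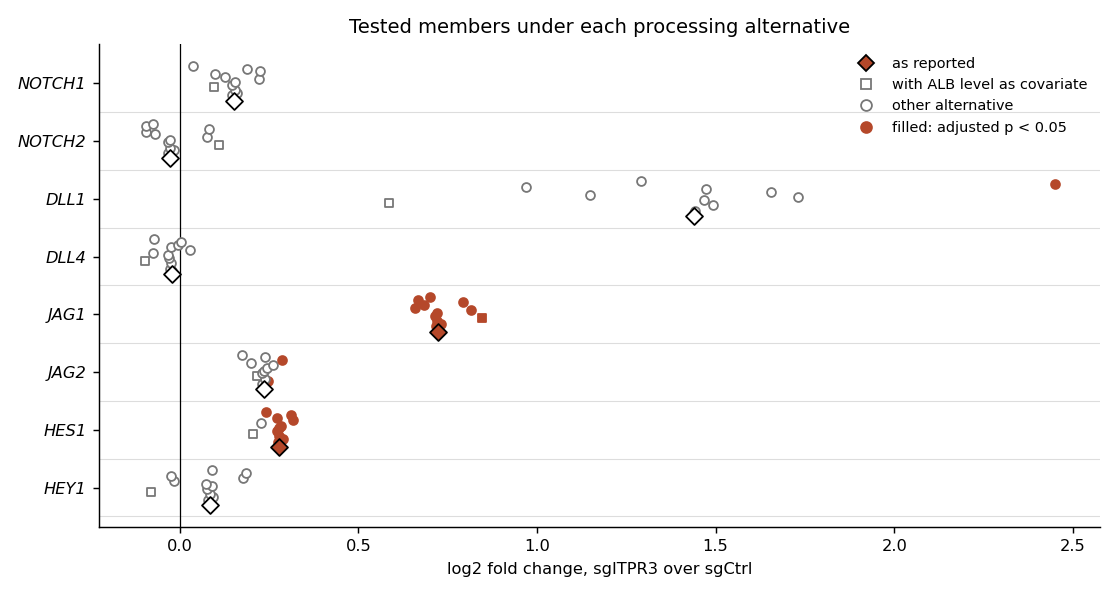
Log2 fold change (horizontal axis, sgITPR3 over sgCtrl) of the 8 tested genes as reported (diamond), with ALB as a covariate (square) and under the other alternatives (circles); filled symbols passed at an adjusted p under 0.05. JAG1 was filled throughout, HES1 lost the call in 2 of 13 alternatives, DLL1 ranged from 0.59 to 2.45, and NOTCH2, DLL4 and HEY1 lay on both sides of 0.

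Further genes of the HES and HEY families moved in both directions. The list held 9 HES, HEY and NRARP genes, beside the 3 NOTCH2NL copies, which were too low to test. Of the 9, 7 could be tested, and 3 rose (HES6, HEY2 and HEYL), 1 fell (HES7) and 3 did not pass (HES2, HES4 and NRARP). That is 57.1% called, against 23.5% of all tested genes. The list goes by gene family, and control of each gene by Notch was not tested. The median log2 fold change of the 7 was 0.43, against 0.000859 over all tested genes, a description of a list that was drawn up with results of these data known.

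HES6 encodes a relative of HES1 that counters HES1 in neural cells of the mouse and frog. It had 154.7, 157.5 and 159.5 CPM in the sgITPR3 libraries, against 105.5, 120 and 91.8 CPM in the sgCtrl libraries. Every sgITPR3 library was higher, with a log2 fold change of 0.57 (SE 0.0855, edgeR adjusted p = 2.44e-04). Per HES1 tag there were 0.589, 0.557 and 0.639 HES6 tags in sgITPR3, against 0.482, 0.523 and 0.441 in sgCtrl. These ratios did not overlap either (difference 0.30 on the log2 scale, two-sided exact permutation p = 0.1, adjusted p = 0.2).

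HEY2 and HEYL, the other HEY family repressors, rose where HEY1 did not pass. HEY2 had 16.4, 17.0 and 17.1 CPM in sgITPR3, against 12.8, 12.2 and 12.1 CPM in sgCtrl (log2 fold change 0.45, SE 0.103, edgeR adjusted p = 0.00627). All sgITPR3 libraries were higher, and the ratio of HEY2 to HEY1 tags averaged 2.24 ± 0.337 in sgITPR3 and 1.74 ± 0.316 in sgCtrl, with overlap (two-sided exact permutation p = 0.2), so a difference between the relatives was not shown. HEYL had 6.17, 7.04 and 7.78 CPM in sgITPR3, against 2.42, 4.92 and 1.98 CPM in sgCtrl. It rose 2.23-fold, or 1.16 on the log2 scale with an SE of 0.267 (edgeR adjusted p = 0.00607). The highest sgCtrl value was again that of replicate 2, and fitting ALB as a covariate gave 0.69, which no longer passed (edgeR adjusted p = 0.0972). HEYL is also a gene of vascular mural cells. Markers of mural cells, stellate cells and fibroblasts summed to 25.7 to 28.4 CPM in sgITPR3 and 20.1 to 22.4 CPM in sgCtrl over 10 genes, 9 of them with a count and LUM at 0, and the defining marker PDGFRB had 5, 6 and 5 counts in sgITPR3 and 0, 0 and 3 counts in sgCtrl. The mural marker RGS5 went the other way, at 0.907, 0.688 and 0.619 CPM in sgITPR3 and 0.914, 1.094 and 1.121 CPM in sgCtrl, and ACTA2 overlapped. Host cells of these types would likewise be of the mouse, and the part of these markers in the HEYL difference was not tested.

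HES7, known as an oscillating repressor of the segmentation clock, fell 2.92-fold. It had 1.04, 1.66 and 1.75 CPM in sgITPR3, against 4.57, 3.78 and 4.64 CPM in sgCtrl (log2 fold change -1.55, SE 0.252, edgeR adjusted p = 5.03e-04). HES4, whose promoter carries the printed TGGGAA letters as HES1 does, had 7.21, 7.08 and 8.09 CPM in sgITPR3, against 9.20, 8.25 and 11.9 CPM in sgCtrl and did not pass (log2 fold change -0.39, edgeR adjusted p = 0.0835). NRARP, a target whose product damps Notch signalling, had 41.1, 42.3 and 36.6 CPM in sgITPR3, against 39.1, 33.6 and 33.0 CPM in sgCtrl (log2 fold change 0.19, 95% interval -0.01 to 0.38, edgeR adjusted p = 0.160). Of the 4 genes whose promoters are printed, HES1, HEYL and HEY2 rose and HES4 did not pass. HES6, which rose, and HES7, which fell, had promoter entries without those letters. HES3 and HES5 held them but could not be tested. A link between the letters and the changes was not tested.

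**Figure D3:**
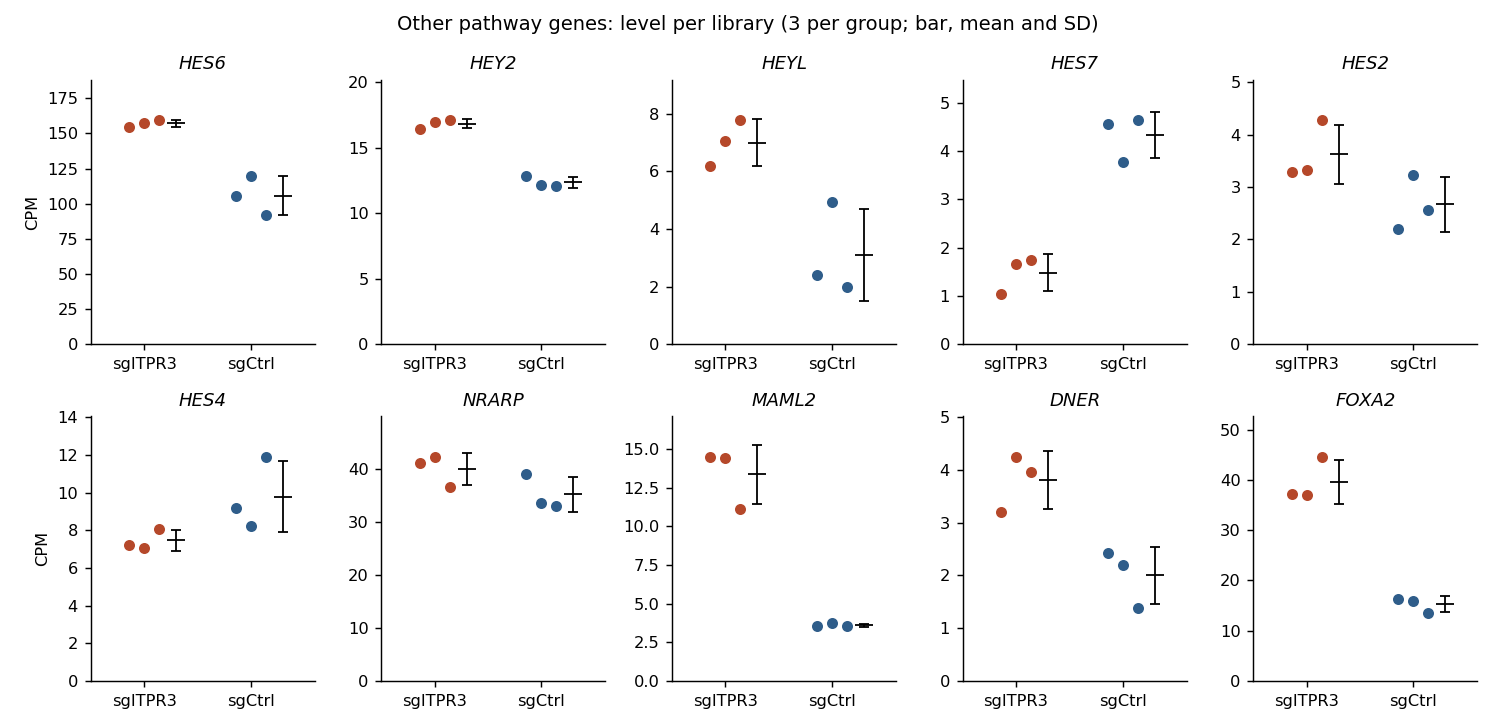
Level in CPM (vertical axes, each from 0) of 10 further pathway genes in the 3 sgITPR3 libraries (left, red) and the 3 sgCtrl libraries (right, blue), with bars at the mean and SD. HES6, HEY2, HEYL, MAML2, DNER and FOXA2 lay higher in every sgITPR3 library, HES7 lay lower, and HES2, HES4 and NRARP did not pass the test.

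**Figure D4:**
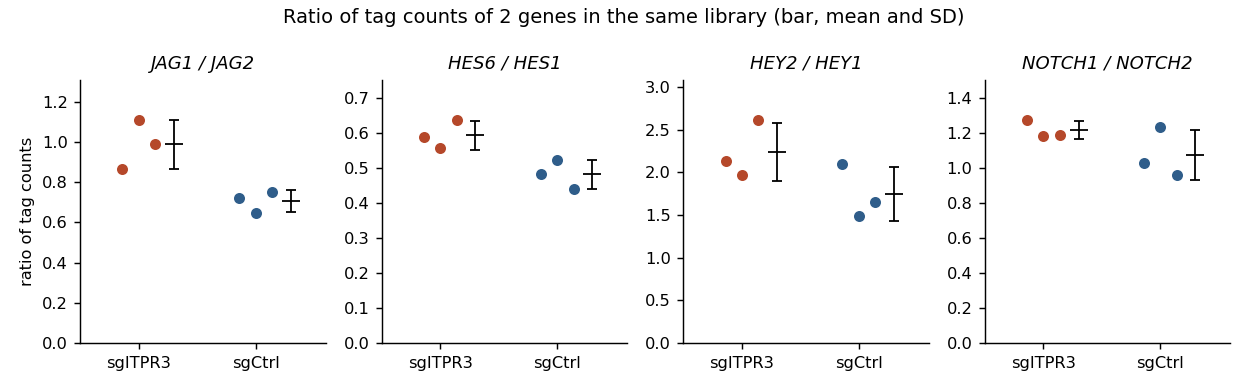
Ratio of the tag counts of 2 relatives in the same library (vertical axes, from 0) for the 3 sgITPR3 libraries (left, red) and the 3 sgCtrl libraries (right, blue), with mean and SD bars. The groups stand apart for JAG1 to JAG2 and for HES6 to HES1, and overlap for HEY2 to HEY1 and for NOTCH1 to NOTCH2.

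In the nuclear complex MAML2 rose and RBPJ did not pass. RBPJ, the DNA-binding centre of the complex, had 118.9, 112.7 and 131.9 CPM in sgITPR3, against 122.8, 118.6 and 117 CPM in sgCtrl (log2 fold change 0.02, 95% interval -0.13 to 0.17, edgeR adjusted p = 0.876). Of 8 activators tested, 3 rose, 0 fell and 5 did not pass, so 37.5% were called, against 23.5% of all tested genes. MAML2 (chromosome 11, 95976598 to 96343180), a Mastermind co-activator, had 14.5, 14.4 and 11.1 CPM in the sgITPR3 libraries, against 3.55, 3.73 and 3.52 CPM in the sgCtrl libraries. That is 3.71-fold higher (log2 fold change 1.89, SE 0.154, edgeR adjusted p = 7.87e-07), and it passed in all 13 alternatives. Neither relative passed, with 0.02 for MAML1 (edgeR adjusted p = 0.899) and 0.30 for MAML3 (edgeR adjusted p = 0.0654) on the log2 scale. The acetyltransferase genes KAT2A and KAT2B rose by 0.30 and 0.67 on the log2 scale (edgeR adjusted p = 0.0274 and 0.0473). The KAT2A call ended without sgITPR3 replicate 2 or 3 or sgCtrl replicate 2 or 3 (adjusted p up to 0.103). The KAT2B call ended without any library except sgCtrl replicate 2 (adjusted p up to 0.166), and without that library its log2 fold change was 1.05. With ALB as a covariate it was 0.14 (edgeR adjusted p = 0.722), and its CPM overlapped between the groups.

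Among co-repressors that join RBPJ when Notch is off, 4 of 14 tested rose (CTBP1, NCOR1, L3MBTL3 and CIR1) and 9 did not pass. Over all tested genes 11.6% rose. NCOR1 had 272.6 ± 2.79 CPM in sgITPR3 and 215.3 ± 4.80 CPM in sgCtrl (log2 fold change 0.34, edgeR adjusted p = 0.00116). CTBP1 had 113.3 ± 1.86 CPM in sgITPR3 and 86.0 ± 2.41 CPM in sgCtrl (edgeR adjusted p = 4.72e-04). L3MBTL3, which encodes a chromatin reader that binds RBPJ, had 3.61 ± 0.374 CPM in sgITPR3 and 1.71 ± 0.508 CPM in sgCtrl (edgeR adjusted p = 0.00767), and lost the call in the fit with ALB (0.78 on the log2 scale, adjusted p = 0.120). CIR1, encoding a co-repressor that binds RBPJ, rose by 0.22 on the log2 scale (edgeR adjusted p = 0.0315). The CIR1 call ended without sgITPR3 replicate 1 or 2 or sgCtrl replicate 1 or 3 (adjusted p up to 0.154) and with the ALB covariate (adjusted p = 0.237), and NCOR1 overlaps PIGL and TTC19 on the other strand.

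Receptor cleavage genes gave no rise that passed. Of 8 tested, 0 rose, 2 fell and 6 did not pass, with a median log2 fold change of -0.02. The 25% called is near the 23.5% of all tested genes, of which 11.6% passed upwards. The 2 that fell encode parts of gamma-secretase. PSENEN, the presenilin enhancer, had 33.8 ± 2.58 CPM in sgITPR3 and 43.8 ± 2.06 CPM in sgCtrl (log2 fold change -0.37, SE 0.0835, edgeR adjusted p = 0.00519), a call that ended with the ALB covariate (adjusted p = 0.0504). PSEN2, a catalytic presenilin, had 22.4 ± 0.198 CPM in sgITPR3 and 28.1 ± 2.91 CPM in sgCtrl (log2 fold change -0.32, edgeR adjusted p = 0.0227), and its call ended without any sgITPR3 library or without sgCtrl replicate 2 (adjusted p up to 0.0862). The sheddase genes ADAM10 and ADAM17 had log2 fold changes of 0.0030 (95% interval -0.15 to 0.16) and -0.01 (95% interval -0.15 to 0.13). PSENEN overlaps other genes on both strands, U2AF1L4 among them.

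Among 11 tested genes of receptor and ligand modification and uptake, 3 rose, 1 fell and 7 did not pass. This put 36.4% past the threshold, against 23.5% of all tested genes. FURIN, the protease that cuts the receptor on its way to the surface, had 52.9, 54.8 and 54.5 CPM in sgITPR3, against 77.0, 85.8 and 68.4 CPM in sgCtrl, a fall by 0.51 on the log2 scale (edgeR adjusted p = 4.73e-04). NEURL1B, a ubiquitin ligase that acts on Notch ligands, had 47.7 ± 3.31 CPM in sgITPR3 and 32.8 ± 2.07 CPM in sgCtrl (log2 fold change 0.54, edgeR adjusted p = 3.43e-04). EPN2, an epsin of ligand endocytosis, rose by 0.40 (edgeR adjusted p = 0.00858), a call that ended without sgITPR3 replicate 3 (adjusted p = 0.0501) and with the ALB covariate (0.33, adjusted p = 0.0930). RFNG, a Fringe sugar transferase, rose by 0.24 on the log2 scale (edgeR adjusted p = 0.0489), which passed in 1 of 13 alternatives and in no fit that left out a library (adjusted p 0.0656 to 0.210). It overlaps GPS1 on the opposite strand.

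Of 13 tested genes of receptor turnover and inhibition, 12 did not pass, NUMB, ITCH and FBXW7 among them. The share called was 7.69%, against 23.5% of all tested genes. CCNC, encoding the cyclin whose kinase marks the intracellular receptor for degradation, fell by 0.25 on the log2 scale, with 53.4 ± 2.77 CPM in sgITPR3 and 63.7 ± 1.01 CPM in sgCtrl (edgeR adjusted p = 0.0180). That call ended without sgITPR3 replicate 2 or 3 (adjusted p up to 0.0957) and with the ALB covariate (adjusted p = 0.0545). DNER, encoding a membrane protein described as a non-canonical Notch ligand, was the one gene to rise among 4 further receptor and ligand genes tested, with 3.196, 4.249 and 3.969 CPM in sgITPR3, against 2.42, 2.19 and 1.39 CPM in sgCtrl (log2 fold change 0.93, edgeR adjusted p = 0.0157). The DNER call ended without sgITPR3 replicate 2 or sgCtrl replicate 3 (adjusted p up to 0.0785) and with the ALB covariate (0.82, adjusted p = 0.121). Among these 4 further genes 25% passed, near the 23.5% of all tested genes.

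A last list held secretory fate factors and genes that ATOH1 and Notch act on or alongside, of which 8 were too low to test. Of 14 listed, 6 could be tested, of which 2 rose (FOXA2 and DCLK1), 1 fell (POU2F3) and 3 did not pass (GFI1, ASCL2 and SOX9). That is 50% called, against 23.5% of all tested genes. SOX9 had 255.6 ± 11.03 CPM in sgITPR3 and 295 ± 25.4 CPM in sgCtrl, and ASCL2 had 98.3 ± 1.035 CPM in sgITPR3 and 108.7 ± 6.48 CPM in sgCtrl. FOXA2, a forkhead factor of gut and liver endoderm, had 37.2, 36.9 and 44.6 CPM in sgITPR3, against 16.35, 15.96 and 13.51 CPM in sgCtrl (log2 fold change 1.37, SE 0.107, edgeR adjusted p = 4.79e-07). DCLK1, a kinase gene used as a tuft cell marker in the mouse gut, had 105, 93 and 101 counts in sgITPR3, against 11, 16 and 29 counts in sgCtrl. POU2F3, the master factor of tuft cells, went the other way, with 15, 21 and 8 counts in sgITPR3 and 43, 70 and 41 counts in sgCtrl (edgeR adjusted p = 1.53e-04 for DCLK1 and 7.39e-04 for POU2F3). GFI1, a partner of ATOH1 in secretory cells, had 2.59 ± 0.845 CPM in sgITPR3 and 3.61 ± 0.480 CPM in sgCtrl (edgeR adjusted p = 0.200).

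**Figure D5:**
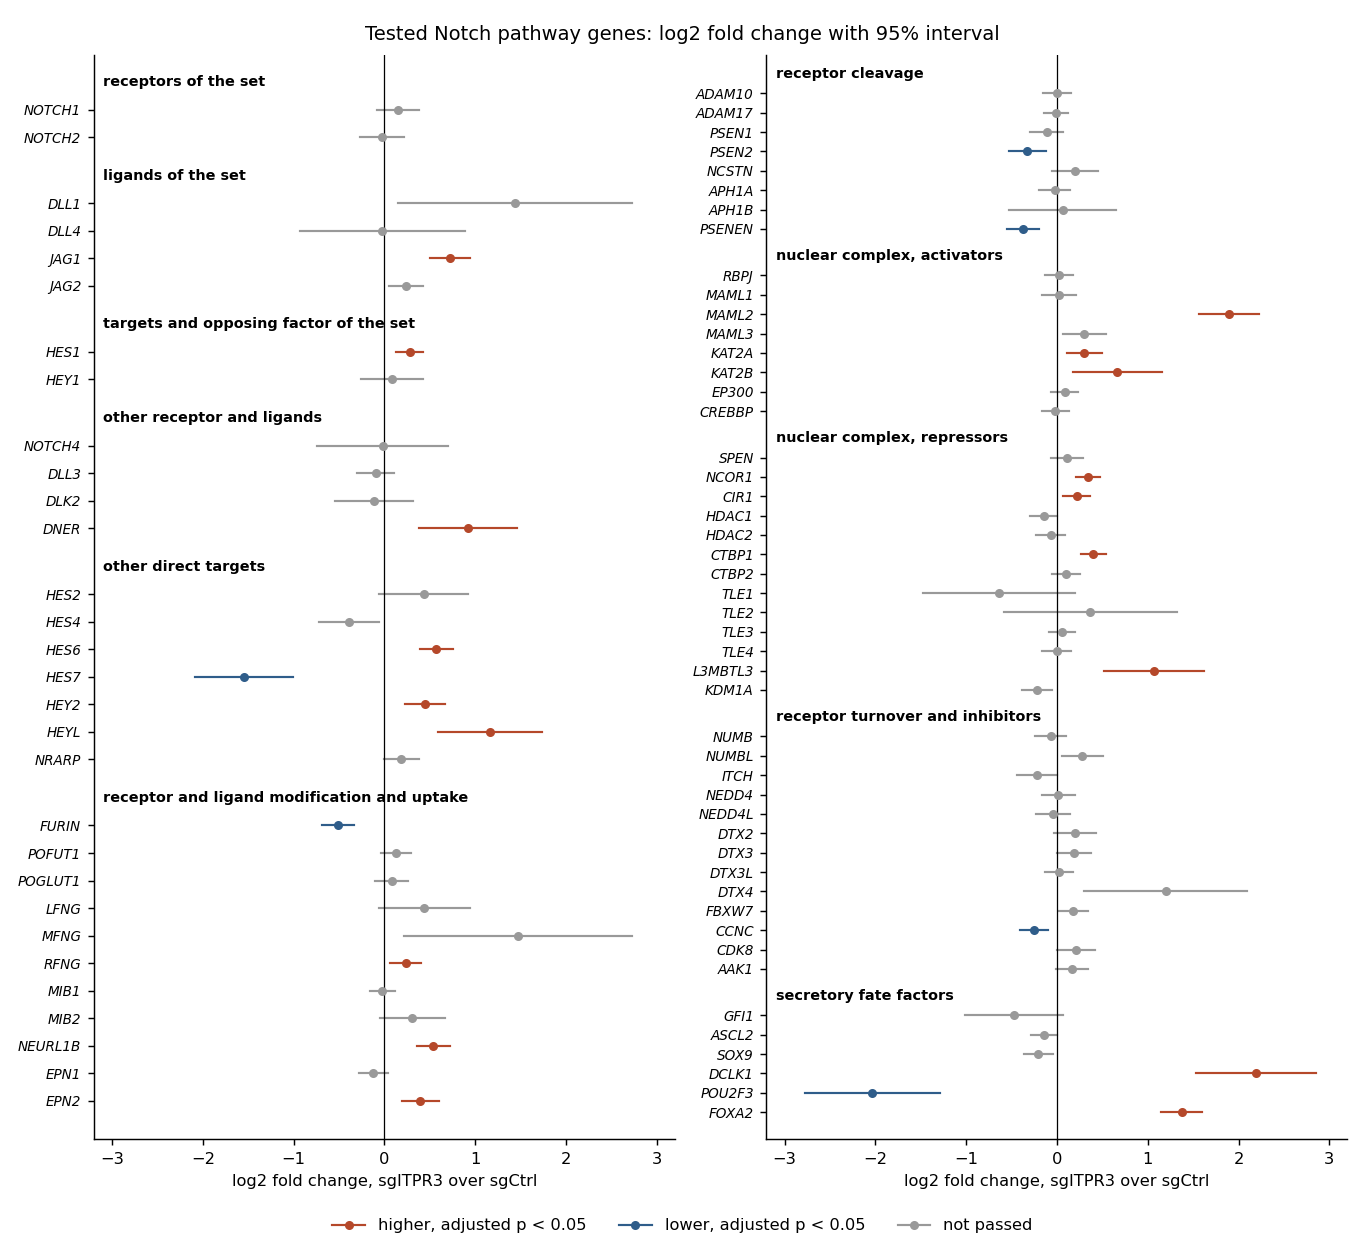
Log2 fold change (horizontal axis, sgITPR3 over sgCtrl) with its 95% interval for the 8 tested genes of the set and the further tested genes described here, grouped by role; red passed upwards, blue downwards and grey did not pass. JAG1 and HES1 are the red points of the 10 genes, MAML2, DCLK1 and FOXA2 lie farthest to the right among the others that passed, and POU2F3 and HES7 farthest to the left.

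Over all 88 further genes of these lists, 71 could be tested, of which 16 rose, 7 fell and 48 did not pass. That is 32.4% called, against 23.5% of all tested genes. Their median log2 fold change was 0.08. Of the 23 that passed, 11 did so in every one of the 13 alternatives, and 10 lost the call with ALB as a covariate. In that fit 14 of the further genes passed, against 23, and 1955 of all genes, against 3717. The loss of calls was thus not particular to these lists.

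The genes whose pattern over the 6 libraries was most like that of JAG1 were sought among the 10631 genes whose mean reached 5 CPM, by the root mean square difference between log2 levels after each gene's own mean was taken off. They were PEAK1, a scaffold of growth factor signalling at the cytoskeleton, with a difference of 0.0682, MAEA, a subunit of a ubiquitin ligase, with 0.0825, and the hydrolase gene NUDT16 with 0.0835. PEAK1 had 50.5 ± 2.84 CPM in sgITPR3 and 32.7 ± 2.98 CPM in sgCtrl. No member fell past the threshold, so no such genes were sought for a fall.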

How the data were processed

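The deposited file is 1 table of gene counts with 6 columns, used unchanged. Per the submitters' processing notes, the authors used STAR 2.6.0a on GRCh38, featureCounts 1.6.3 and DESeq2. Annotation release, strand setting and treatment of mouse or multiply aligned reads were not given in the sources used here. Per the labels, libraries were made from polyadenylated RNA with a Lexogen 3′ FWD kit. Symbols were paired with 58641 of 58884 identifiers, and gene positions come from GENCODE release 29 (GRCh38).

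Counts were fitted with edgeR 4.0.16 (R 4.3.3) over the 15804 genes kept by filterByExpr at a minimum count of 10, with TMM scaling and group as the only term. Adjustment was by Benjamini and Hochberg over these genes, the SE is the absolute log2 fold change over the square root of F, and intervals cover 95%. The 10 genes and all lists were chosen with earlier results of these data known. From each list the passing genes are named, at most 5, and the 3 genes most like the member that rose most; the others named were chosen after their values were seen. Alternatives were RLE scaling, no filter, 1 CPM in 3 libraries, the replicate block, the ALB level as covariate, DESeq2 1.42.0, limma-voom (limma 3.58.1) and each library left out. The procedure was tested on simulated data. Some genes of the lists are counted but not reported here by name. Libraries of a group differed by 6.07 to 11.4 chi-square per degree of freedom, so none is a mere resequencing of another. These values do not tell whether libraries share an animal.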

Additional observations from a re-analysis of the deposited data

How the results depend on the processing

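JAG1 kept its direction and its call under all 13 alternatives, with log2 fold changes from 0.66 to 0.84. With ALB as a covariate, 1955 of all genes, 1 of the 10 genes (JAG1) and 14 of the further pathway genes passed, against 3717, 2 and 23; the cause was not tested. Leaving out 1 library gave 2331 to 4261 genes in all, 1 to 3 of the 10, and 15 to 26 further pathway genes, the lowest numbers without sgITPR3 replicate 2. Small changes took either sign: NOTCH2 had a log2 fold change of 0.11 with ALB as a covariate and -0.095 to 0.082 without 1 library, HEY1 had -0.080 with ALB and -0.026 to 0.184 without 1 library, and DLL4 had -0.074 to 0.028 without 1 library. The replicate numbers do not mark a shared animal or day in the labels. Deviations from the group mean correlated at -0.0511, 0.0384 and 0.119 between same-numbered libraries of the 2 groups. Between differently numbered libraries they correlated at -0.138 to 0.113. With the replicate block 3877 genes, 2 of the 10 and 22 further genes passed. DLL1 and DLL4 gave no value under the filter of 1 CPM. RLE scaling moved the median of all genes by -0.00052 on the log2 scale. For DLL1, DLL4 and NOTCH3, with 24 counts or fewer per library, depth limits what can be seen, and intervals cover the spread of 3 libraries per group.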
